A study of Sus scrofa with 9 samples.

Results

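The genes described here answer interferons or build the machinery that displays peptides on MHC class I. They were taken by symbol from a list of 49 names, with no limit on their measured values but with earlier results of these data known, and 47 of the names were among the 19535 gene rows of the deposited table. The names IFIT5 and SAMD9 were not among the symbols and are given no value under those names. Of the 47 genes, 44 had enough counts to be tested, among 13662 tested genes. ISG20 and OASL had at most 15 and 10 counts in any library, and XAF1 was listed at 0 in all 9 libraries. The 44 genes comprise 3 RNA sensors, 6 transcription factors, 3 feedback and ubiquitin-like modifier genes, 13 antiviral effectors, 6 other interferon-stimulated genes, 5 genes of the MHC class I chains and their regulator, 3 genes of peptide transport and loading, and 5 genes of the immunoproteasome and its activator.

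The cells were porcine valvular interstitial cells (PVICs), the fibroblast-like cells of the aortic valve leaflet, from wild type pigs 4 to 5 months old. Control PVICs were kept in DMEM. OIM, an osteogenic medium with ascorbic acid (50 µg/mL), insulin (1e-07 mol/L) and phosphate (2 mmol/L), was used to induce calcium deposition, and the bFGF group received OIM with 50 ng/mL basic fibroblast growth factor. RNA was sequenced in 3 libraries per group, after 3 days per the labels and a shorter time per the study's methods. The labels name no interferon or virus, and the leaflet surface was scraped free of endothelium before the cells were isolated. The bFGF group was always in OIM, so bFGF without OIM was not measured.

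Gene counts summed to between 57075793 and 67371523 in the control and OIM libraries and to between 46773376 and 48270827 in the bFGF libraries. The labelled cell type was checked against its markers. The 12 PVIC markers, collagens and decorin among them, summed to between 49600 and 87100 CPM, counts scaled to a common library total, in every library, and the T cell genes CD3E, CD3D, CD3G and CD2 were at 0 in all 9. The sources do not say whether the 3 libraries of a group came from separate animals or cultures, so p-values measure only the spread between these libraries, which may be technical.

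Interferons are secreted proteins that bind receptors on the cell surface and act through JAK kinases on STAT proteins. STAT2 and IRF9 are parts of a complex that binds a DNA element, the interferon-stimulated response element (ISRE), in front of many antiviral genes. Sensors of viral RNA act upstream of this loop and are themselves among its targets. For MHC class I presentation, the proteasome cuts proteins into peptides, the TAP transporter carries them into the endoplasmic reticulum, tapasin helps to load them, and the class I heavy chain shows them at the surface together with beta-2-microglobulin. Interferon also raises the immunoproteasome subunits, which replace the constitutive catalytic subunits.

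The ISRE core was searched in the 300 bases from 250 before to 50 after the annotated start of each gene in the RefSeq genome Sscrofa11.1, as a pair of GAAA blocks with any 2 bases between them, on both strands, where neighbouring matches may share letters. A match lay in the window of 22 of the 47 genes (46.8%), against 700 of 19559 windows of protein-coding genes (3.58%). These genes are known interferon targets, so the shares describe the gene set and say nothing about binding in PVICs. The sequences below show the match of 9 genes on which the results turn, read 5′ to 3′ on the strand of the gene, with the matched core in capitals. A core on the other strand reads as a pair of TTTC blocks.
RSAD2 (chr3:128897920-128897949, minus strand): ctgttccaatTTTCATTTTCacgagagcaa
IFIT1 (chr14:101237384-101237413, plus strand): cctactttaaTTTCACTTTCtactttcagt
IFIH1 (chr15:68985287-68985316, minus strand): agaattcgctTTTCCTTTTCtctttcccac
BST2 (chr2:60305095-60305124, plus strand): ttttttctggGAAAACGAAAaaagaaaccg
B2M (chr1:126844048-126844077, minus strand): ataagacttaGAAAATGAAActgaaaacgg
ISG15 (chr6:63363057-63363086, plus strand): cctgccttggGAAAAGGAAAccgaaactga
PSMB9 (chr7:25071960-25071989, plus strand): cggtttatggGAAAGGGAAAacgaaagcgg
PSME1 (chr7:75164494-75164523, minus strand): cgagcgctgcTTTCGCTTTCccttccctgt
PSME2 (chr7:75154579-75154608, plus strand): cgtggggagtGAAAGCGAAAgcccaggctg
The first 4 belong to genes that were called lower in bFGF than in OIM, and the last 5 to genes that were not called in that comparison, of which B2M was called lower in bFGF than in control. TAP1 starts on the other strand, with 143 bases between the pair, and its window overlaps the stretch shown for PSMB9. A match was found in 7 of the 20 genes called lower in bFGF than in OIM (35.0%) and in 14 of the 24 tested genes that were not called (58.3%). The GAS element of the interferon gamma response, searched as TTCNNNGAA, matched in 4 of the 47 windows (8.51%) and in 7.12% of all windows.

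A gene was called where edgeR's quasi-likelihood test gave a Benjamini-Hochberg adjusted p of at most 0.05 over all 13662 genes and the log2 fold change was at least 0.5 in size. Levels are CPM scaled by the trimmed mean of M values (TMM), and errors of log2 fold changes are standard errors (SE).

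In control PVICs the genes were expressed without added interferon. Per kilobase of transcript, the highest mean levels were those of IFI6 at 101 ± 7.88 CPM per kb (SD, n = 3), SLA-2 at 97.6 ± 8.12, EIF2AK2 at 92.9 ± 6.67, B2M at 91.5 ± 5.19 and MX1 at 82.9 ± 15.5. The place of B2M rests on the length of 1105 bases in the first of its 2 RefSeq records. With the 514 bases of the other record, an alternative added after the data were seen, B2M was at 197 ± 11.2 CPM per kb and the highest of all. The SDs of neighbours in the first order overlap. NLRC5 was lowest among the tested genes, at 0.312 CPM per kb. The interferons themselves were at the floor: 6 of 9 interferon genes looked for were in the table, none could be tested, and none had more than 4 counts in any library.

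The first comparison asks what OIM does to these genes. Of the 44 genes, 0 were called in OIM against control. Over all genes 2.35% were called (1.49% higher and 0.864% lower), so 0 of 44 is near that share. The median log2 fold change of the 44 was -0.03, with 27 below 0 and 17 above. The range ran from -0.37 in IFIT2 to 0.19 in DHX58. In 7 genes every OIM library was below every control library, and in 0 above (14.2% and 14.5% of all genes). DESeq2 also called 0, and 8 genes had an unadjusted p under 0.05 with edgeR, all of them lower and none past the fold limit. The share of all genes under that unadjusted limit was not counted. By adjusted p without the fold limit, 3 genes were lower and 0 higher, against 5.87% and 7.69% of all genes. These were GBP1 (log2 fold change -0.34, SE 0.105, adjusted p = 0.0382), SLA-2 (-0.29, SE 0.0701, adjusted p = 0.00872) and SLA-3 (-0.21, SE 0.0474, adjusted p = 0.00446). Without control replicate 3 or without OIM replicate 3, 1 gene was called, IFIT3, with log2 fold changes of -0.53 and -0.50.

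The second comparison asks what bFGF does in PVICs that are in OIM. Here 20 of 44 genes were called lower and 0 higher, where 18.4% of all genes were called lower, 17.7% higher and 36.2% in either direction. With library totals alone, a scaling without TMM, 13 of the 44 were lower and 2 higher, where 12.4% of all genes were lower and 27.3% higher. The median log2 fold change of the 44 genes was -0.49, against -0.0029 over all genes. Of the 31 interferon response genes 18 were lower, with a median of -0.62, and of the 13 antigen presentation genes 2 were lower, with a median of -0.23. In 31 genes every bFGF library was below every OIM library, and in 3 genes every bFGF library was above (35.8% and 36.3% of all genes, or 72.1% in either direction). In cultures sequenced in bulk, fewer cells of one kind and less RNA per cell cannot be told apart.

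Marker sums of other cell types differed in the bFGF group, and their calls are read against 17.7% of all genes higher and 18.4% lower. The 10 endothelial markers summed to between 87.9 and 89.6 CPM in OIM and between 170 and 180 in bFGF, and 7 were called higher. ERG carried most of this sum, at 66.8 CPM in OIM and 137 in bFGF on average. The 13 macrophage markers summed to between 25.8 and 28.8 CPM in OIM and between 18.2 and 19.4 in bFGF, with 2 of the 10 tested, CD163 and CD14, called lower. The 12 PVIC markers summed to between 78000 and 81100 CPM in OIM and between 49600 and 50600 in bFGF, with 5 lower and 3 higher. The part of these shifts in the lower interferon genes was not tested.

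**Figure D1:**
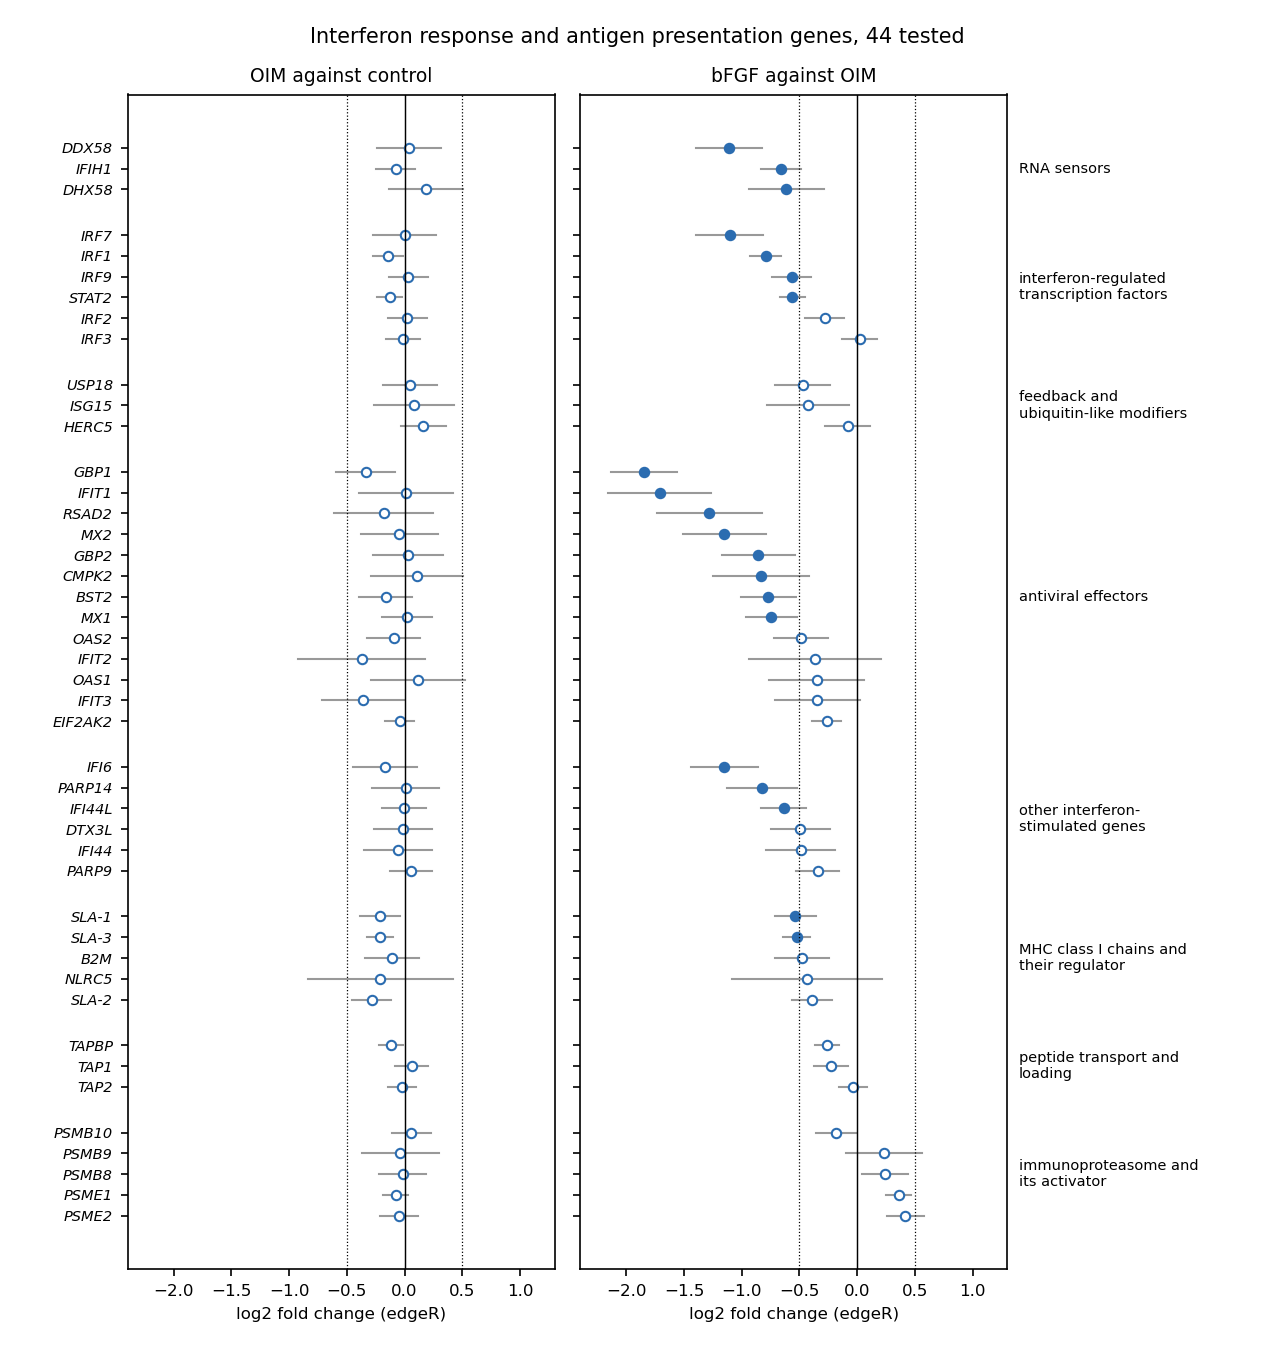
Log2 fold change of the 44 tested genes in OIM against control (left) and bFGF against OIM (right), by role. Points are edgeR estimates, bars are 95% intervals with 6 residual degrees of freedom, filled points were called and dotted lines mark the fold limit of 0.5. On the left no point is filled, and on the right 20 are filled, all below 0, with the proteasome genes at the bottom mostly above 0.

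The 3 cytosolic RNA sensors were all lower with bFGF (18.4% of all genes), and with library totals alone DDX58 was (12.4%). DDX58 encodes RIG-I, which recognises the ends of viral RNA. Its level was 99.9, 119 and 79.2 CPM in the control libraries, 86.8, 95.1 and 123 in OIM, and 49.9, 43.5 and 47.8 in bFGF. All bFGF libraries lay below the lowest of the other 6, and DDX58 fell by 1.11 on the log2 scale against OIM (SE 0.118, adjusted p = 5.76e-08). IFIH1 encodes MDA5, the sensor of long RNA duplexes. Its level was 40.9, 39.7 and 34.4 CPM in control, 35.3, 34.3 and 39.4 in OIM, and 22.9, 23.7 and 22.2 in bFGF. IFIH1 had a log2 fold change of -0.66 (SE 0.0711, adjusted p = 7.16e-08), and bFGF did not overlap with either group. DHX58 encodes LGP2, a helper of both sensors, and measured 19.1, 22.9 and 15.8 CPM in control, 21.2, 18 and 26.6 in OIM, and 14.4, 12.6 and 15.9 in bFGF. The highest bFGF library lay just above the lowest control library, and below all OIM libraries. DHX58 had a log2 fold change of -0.62 against OIM (SE 0.132, adjusted p = 0.000389), which was -0.45 and no longer called without OIM replicate 3.

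Among the transcription factors, 4 of 6 were lower (18.4% of all genes), and with library totals alone 2 were, IRF1 and IRF7 (12.4%). IRF7, the factor that amplifies type I interferon production, measured 8.75, 10.3 and 8.2 CPM in control, 8.78, 9.1 and 9.37 in OIM, and 4.59, 3.71 and 4.39 in bFGF. Control and OIM overlapped while bFGF lay well below, with a log2 fold change of -1.10 against OIM (SE 0.119, adjusted p = 7.48e-08). IRF1, a factor induced by interferon gamma that drives class I genes, measured 44.4, 45.1 and 45.5 CPM in control, 42.4, 40.8 and 39.1 in OIM, and 24.5, 22.9 and 23.1 in bFGF. The IRF1 libraries formed 3 groups that did not overlap, and the log2 fold change of bFGF against OIM was -0.79 (SE 0.0551, adjusted p = 9.35e-11). IRF1 was also lower in every OIM library than in every control library, with a log2 fold change of -0.14 that did not pass (adjusted p = 0.087).

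STAT2 and IRF9, both parts of the complex that binds the ISRE, were called lower. STAT2 measured 91.7, 93.2 and 92.2 CPM in control, 81.9, 85.3 and 86.2 in OIM, and 58.8, 59.1 and 53.7 in bFGF. Its spread in control was the smallest of the 44 genes, a coefficient of variation (CV) of 0.808%, and the 3 groups were separate. The log2 fold change of STAT2 was -0.56 against OIM (SE 0.0448, adjusted p = 8.05e-10). IRF9 measured 44, 46.6 and 40.9 CPM in control, 47.3, 39.5 and 47.9 in OIM, and 30.6, 29.2 and 31 in bFGF. OIM and control overlapped in IRF9, and bFGF was lower by a log2 fold change of -0.57 (SE 0.0697, adjusted p = 4.66e-07).

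IRF2 and IRF3 were not called. IRF2, an antagonist of IRF1 at shared sites, measured 18.6, 19.1 and 17.8 CPM in control, 19.1, 18.8 and 18.4 in OIM, and 15.9, 14.9 and 15.5 in bFGF. Its groups did not overlap between OIM and bFGF, but the log2 fold change of -0.28 (SE 0.0699, adjusted p = 0.00138) was inside the fold limit. IRF3, which is activated by phosphorylation rather than by induction, measured 39.4, 37.7 and 36.7 CPM in control, 40.9, 36.9 and 34.9 in OIM, and 40.1, 37.4 and 37 in bFGF. The IRF3 levels overlapped between all groups, with a log2 fold change of 0.02 against OIM (95% interval -0.13 to 0.17, adjusted p = 0.76).

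Of 10 receptor, JAK kinase and STAT genes of the pathway that are not among the 49 names, 6 were lower with bFGF and 0 higher (18.4% and 17.7% of all genes). By library totals 3 were lower (IFNLR1, IL10RB and STAT3), where 12.4% of all genes were, and JAK2 was called in 6 of the 9 fits that each left out 1 library (not without OIM replicate 2, OIM replicate 3 or bFGF replicate 1). The largest changes of this list were those of IFNLR1, the specific chain of the interferon lambda receptor, at -2.34 (SE 0.202, adjusted p = 2.77e-09), and IL10RB, its shared chain, at -1.23 (SE 0.0897, adjusted p = 2.14e-10). IFNLR1 was scarce, at 4.08 ± 0.325 CPM in OIM and 0.806 ± 0.121 in bFGF.

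The feedback and modifier genes held no call. ISG15, the ubiquitin-like protein joined to targets after interferon, had a log2 fold change of -0.43 (SE 0.144, adjusted p = 0.0132), and its OIM libraries at 15.5, 16.4 and 23.7 CPM overlapped with bFGF at 16.4, 11.9 and 13. USP18, the protease that removes ISG15 and damps the interferon receptor, had -0.47 (SE 0.096, adjusted p = 0.000215), with no overlap. HERC5, the ligase that attaches ISG15, had -0.08 (95% interval -0.28 to 0.11, adjusted p = 0.36).

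Of the 13 antiviral effectors, 8 were lower with bFGF and 0 higher (18.4% and 17.7% of all genes), with a median log2 fold change of -0.77. The same 8 were called with library totals alone (12.4% of all genes lower). GBP1, a GTPase that attacks pathogen compartments, changed most among the 44 genes. Its level was 19, 19.7 and 17.7 CPM in control, 12.8, 14.2 and 17.7 in OIM, and 4.27, 3.65 and 4.48 in bFGF. GBP1 fell by 1.85 on the log2 scale against OIM (SE 0.118, adjusted p = 2.72e-11), with every bFGF library far below the others. Its neighbour GBP2, a GTPase of the same family, measured 7.36, 7.46 and 6.51 CPM in control, 7.73, 6.29 and 7.81 in OIM, and 4.01, 3.54 and 4.5 in bFGF. The log2 fold change of GBP2 was -0.86 (SE 0.131, adjusted p = 8.46e-06), again without overlap.

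IFIT1, which binds foreign RNA ends and blocks their translation, measured 26.9, 27.6 and 16.4 CPM in control, 20.3, 20.6 and 30.7 in OIM, and 8.74, 6.32 and 6.73 in bFGF. The control and OIM libraries ranged widely and overlapped, yet all lay above the bFGF libraries, and the log2 fold change was -1.71 (SE 0.181, adjusted p = 5.73e-08). The other IFIT genes of the same cluster on chromosome 14 had smaller values, a difference that was not tested. IFIT2 had -0.36 (SE 0.234, adjusted p = 0.178) and IFIT3 had -0.34 (SE 0.15, adjusted p = 0.0496), both with overlapping libraries. A gene listed as LOC100151816, for which the RefSeq table gives IFIT5 as a synonym and which was looked up after the data were seen, lies next to IFIT1 and had -0.28 (SE 0.0633, adjusted p = 0.000604). Its level was 55.9 ± 3.48 CPM in OIM and 46 ± 1.84 in bFGF.

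RSAD2 and CMPK2, which lie head to head on chromosome 3, make viperin and the kinase that supplies its substrate. RSAD2 measured 54.8, 55 and 33.9 CPM in control, 33, 39.7 and 54 in OIM, and 23, 14.9 and 14.2 in bFGF. Its log2 fold change was -1.28 against OIM (SE 0.187, adjusted p = 4.63e-06), with no overlap. CMPK2 measured 23.1, 30 and 17.7 CPM in control, 19.8, 24.3 and 32.2 in OIM, and 17.3, 12.7 and 12.8 in bFGF. CMPK2 showed -0.83 (SE 0.169, adjusted p = 0.000213), with its highest bFGF library just under the lowest of the other 6.

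The MX genes encode GTPases that trap viral particles. MX1 measured 209, 259 and 179 CPM in control, 207, 205 and 245 in OIM, and 137, 123 and 132 in bFGF. Its log2 fold change was -0.74 (SE 0.0911, adjusted p = 4.73e-07), without overlap. MX2, next to it on chromosome 13, measured 16.1, 18.6 and 12.5 CPM in control, 12.9, 16.1 and 16.8 in OIM, and 8.28, 5.63 and 6.69 in bFGF. MX2 had the larger log2 fold change of the pair at -1.15 (SE 0.145, adjusted p = 7.21e-07), a difference that was not tested. BST2, or tetherin, holds budding virus at the membrane and measured 21.9, 22.3 and 20.3 CPM in control, 19.1, 16.5 and 21.9 in OIM, and 11.1, 10.3 and 12.4 in bFGF. The log2 fold change of BST2 was -0.77 (SE 0.0967, adjusted p = 6.68e-07), and bFGF lay below both other groups.

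Besides IFIT2 and IFIT3, the effectors that were not called were OAS1 and OAS2, enzymes that activate RNase L, and EIF2AK2, the kinase PKR that stops translation. OAS2 had a log2 fold change of -0.49 (SE 0.0957, adjusted p = 0.000147), just inside the fold limit. OAS1 had -0.35 (SE 0.168, adjusted p = 0.0719), and EIF2AK2 had -0.26 (SE 0.051, adjusted p = 0.000125).

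Of the 6 other interferon-stimulated genes, 3 were lower (18.4% of all genes), and with library totals alone 2 were, IFI6 and PARP14 (12.4%). IFI6, a small membrane protein that opposes cell death and flavivirus replication, measured 80.4, 70.1 and 70.8 CPM in control, 70.1, 50.4 and 76.7 in OIM, and 30.3, 24.6 and 33.9 in bFGF. The bFGF libraries lay below all others despite the wide OIM range, with a log2 fold change of -1.15 (SE 0.118, adjusted p = 3.74e-08). PARP14, an ADP-ribosyltransferase of the interferon response, measured 33.9, 38 and 26.2 CPM in control, 28.6, 32.3 and 37.8 in OIM, and 22, 16.7 and 17 in bFGF. PARP14 had -0.82 (SE 0.123, adjusted p = 6.6e-06), and no bFGF library reached the other groups. IFI44L measured 54.1, 56.6 and 50 CPM in control, 50.5, 49.1 and 60.6 in OIM, and 36.7, 30.2 and 36.1 in bFGF. The log2 fold change of IFI44L, whose function is poorly known, was -0.64 (SE 0.0791, adjusted p = 5.77e-07), without overlap. The remaining 3 had values from -0.49 in IFI44 and DTX3L to -0.34 in PARP9. PARP9 and DTX3L, partners in 1 complex, overlap at their starts on opposite strands of chromosome 13, and since the strand setting of the counting is not given in the sources used here, their reads may be shared.

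**Figure D2:**
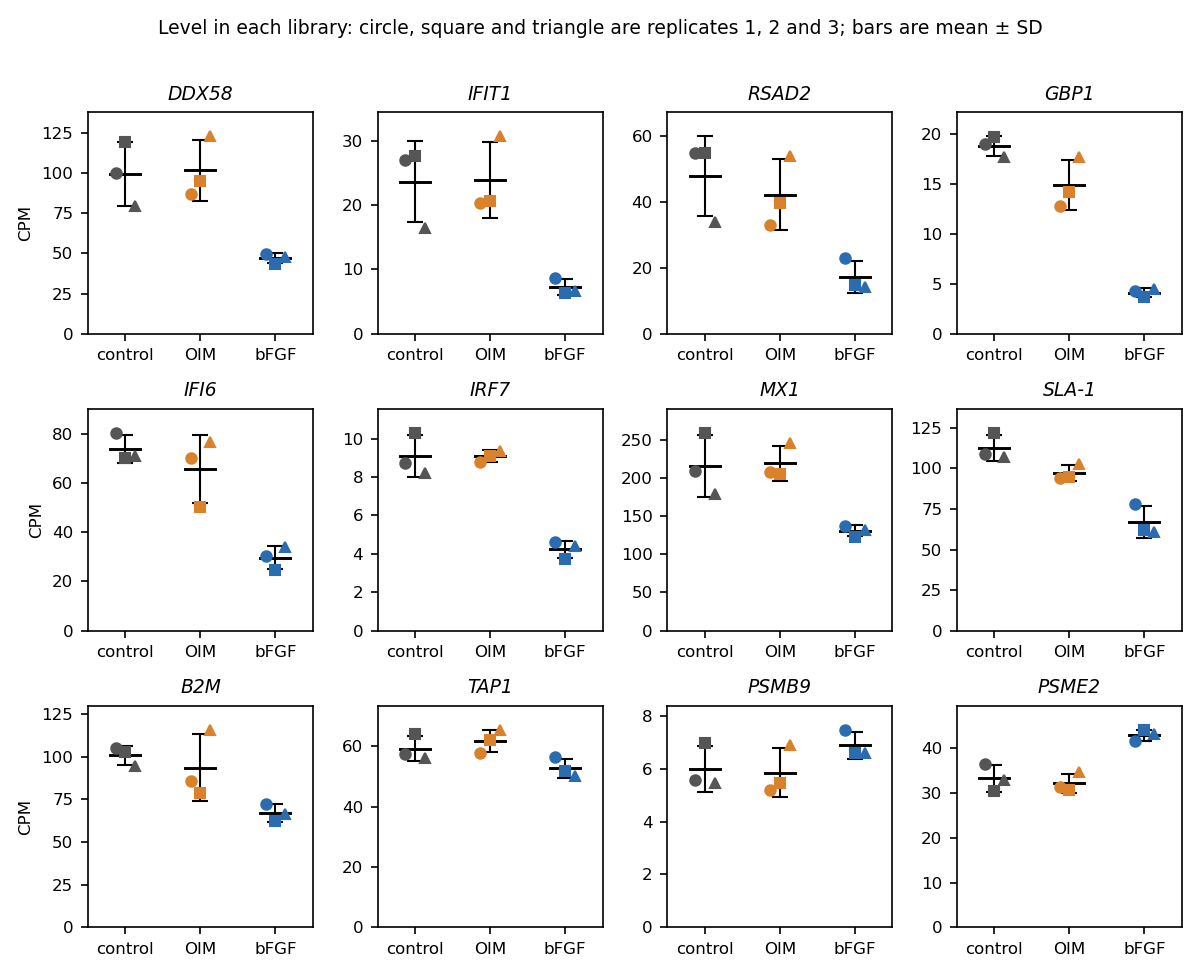
Level (CPM, from 0) of 12 of the genes in each of the 9 libraries. Symbols are replicates, horizontal lines are means and bars are SD (n = 3). For DDX58, IFIT1, RSAD2, GBP1, IFI6, IRF7, MX1, SLA-1 and B2M the bFGF libraries lie below all OIM and control libraries, PSMB9 overlaps between groups and PSME2 lies above in bFGF.

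Of the 5 genes of the class I chains and their regulator, 2 were lower with bFGF (18.4% of all genes), by amounts near the fold limit, and 0 with library totals alone (12.4%). SLA-1, a classical class I heavy chain of the pig, measured 109, 122 and 107 CPM in control, 94.3, 94.6 and 103 in OIM, and 78.3, 62.3 and 60.6 in bFGF. Its 3 groups did not overlap, and the log2 fold change of bFGF against OIM was -0.54 (SE 0.0733, adjusted p = 2.1e-06). SLA-3 measured 96.8, 95.2 and 89.2 CPM in control, 77.5, 81.5 and 83.6 in OIM, and 58, 57.7 and 53.2 in bFGF, in the same order of groups. Its log2 fold change was -0.52 (SE 0.0484, adjusted p = 7.77e-09). SLA-2 measured 104, 120 and 104 CPM in control, 96.3, 93.3 and 79.3 in OIM, and 72.8, 70.2 and 61.7 in bFGF. SLA-2 was not called, with -0.39 (SE 0.0712, adjusted p = 6.3e-05), although its groups were separate as well. The calls of SLA-1 and SLA-3 were lost when single libraries were left out: SLA-1 without OIM replicate 3 (-0.49), bFGF replicate 2 (-0.49) or bFGF replicate 3 (-0.47), and SLA-3 without OIM replicate 2 (-0.50), OIM replicate 3 (-0.50) or bFGF replicate 3 (-0.48), each just inside the fold limit.

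B2M, the light chain that all class I molecules share, measured 105, 103 and 94.6 CPM in control, 86, 79 and 116 in OIM, and 72.5, 62.3 and 66.7 in bFGF. All bFGF libraries were below the others, OIM replicate 3 was the highest library of all, and the log2 fold change was -0.48 (SE 0.0956, adjusted p = 0.000171), just inside the limit. NLRC5, the transactivator of class I genes, was scarce at 1.79 ± 0.597 CPM in OIM and 1.32 ± 0.14 in bFGF, with -0.43 (95% interval -1.09 to 0.22, adjusted p = 0.156). The ratio of SLA-1 to B2M per kilobase was 0.641 ± 0.0971 in OIM and 0.604 ± 0.0517 in bFGF (n = 3 each) and overlapped between the groups (exact two-sided permutation p = 0.7, where 3 libraries against 3 cannot go below 0.1). These ratios use the 1105 bases of the first B2M record, and with the 514 bases of the other they were 0.298 ± 0.0452 in OIM and 0.281 ± 0.0241 in bFGF.

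The class I counts carry an uncertainty of their own. SLA-1 (chr7:22824137-22920154), SLA-2 (chr7:22916747-22959405) and SLA-3 (chr7:22938211-22942735) are close paralogs on the plus strand, and the annotated SLA-2 overlaps SLA-1 and encloses SLA-3, so reads may be split between them. RefSeq also holds 2 gene records named B2M on chromosome 1, at 126837721 to 126844043 and at 126865767 to 126878501, while the table has 1 row of that name. The ISRE sequence of B2M shown above belongs to the first of these records, and the window of the other held no match.

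Reads assigned to back-splice junctions were also listed in the class I cluster, from the same 9 libraries as the gene counts. Reads of these paralogs may be misplaced, so whether the junctions are circles apart from the gene counts was not tested. The table of circular RNAs had 22 rows between chr7:22824137 and 22959405, with a median span of 56356.5 bases against 10930 over all rows. Of these 22, 13 were seen in at most 3 libraries and 1 in all 9. That row, circRNA_5144 (chr7:22891788-22941034), runs from inside SLA-1 to inside SLA-3. It had 176, 203 and 176 junction reads in control, 140, 146 and 174 in OIM, and 101, 74 and 74 in bFGF. Scaled to the gene counts as CPM, circRNA_5144 was at 2.62 ± 0.405 in OIM and 1.58 ± 0.265 in bFGF (n = 3 each), a ratio of 0.602, and the groups did not overlap (exact two-sided permutation p = 0.1, the smallest possible). The junction reads of all 22 rows summed to 294, 305 and 284 in OIM and to 195, 161 and 165 in bFGF, a ratio of 0.658 on the CPM scale (exact two-sided permutation p = 0.1). Junction reads over all 6179 circular RNA rows were also fewer with bFGF, at 151 ± 2.73 CPM in OIM and 119 ± 2.42 in bFGF (n = 3 each), a ratio of 0.786. Whether the cluster moved more than these rows as a whole was not tested. Outside this cluster, 4 rows lay in 3 of the other genes, STAT2, HERC5 and EIF2AK2, with at most 9 reads in any library.

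Of the 3 genes of peptide transport and loading, 0 were called. TAP1 had a log2 fold change of -0.23 (SE 0.0593, adjusted p = 0.00211) and its partner TAP2 had -0.04 (95% interval -0.16 to 0.08, adjusted p = 0.533), which turned positive when only library totals were used. The tapasin gene TAPBP had -0.26 (SE 0.0428, adjusted p = 2.12e-05). Per kilobase, the ratio of TAP1 to TAP2 was 0.978, 1.01 and 0.96 in OIM and 0.941, 0.824 and 0.815 in bFGF, without overlap (exact two-sided permutation p = 0.1, n = 3 each).

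Of the 5 immunoproteasome and activator genes, 0 were called, and 4 had log2 fold changes above 0, or all 5 when only library totals were used. PSMB8, the inducible subunit that replaces PSMB5, measured 15.3, 17.7 and 18.6 CPM in OIM and 19.4, 21.2 and 20.3 in bFGF, with a log2 fold change of 0.24 (SE 0.0813, adjusted p = 0.0139). PSMB9, which replaces PSMB6, had 0.24 (SE 0.135, adjusted p = 0.131). PSMB10, which replaces PSMB7, had -0.18 (SE 0.0706, adjusted p = 0.028). The activator subunits PSME1 and PSME2, which open the proteasome core, had 0.36 (SE 0.0454, adjusted p = 7.17e-07) and 0.42 (SE 0.0661, adjusted p = 1.34e-05). By adjusted p without the fold limit, PSMB8, PSME1 and PSME2 were the 3 higher genes of the 44, beside 34 lower ones (33.8% and 33.5% of all genes, or 67.4% in either direction). PSME2 measured 31.3, 30.6 and 34.6 CPM in OIM and 41.6, 44 and 43.3 in bFGF, with every bFGF library above.

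The constitutive catalytic subunits had log2 fold changes above 0. PSMB5, PSMB6 and PSMB7 had log2 fold changes of 0.43 (SE 0.0494, adjusted p = 1.92e-07), 0.39 (SE 0.0485, adjusted p = 6.32e-07) and 0.20 (SE 0.0509, adjusted p = 0.00183), and none was called. Of the 11 other core subunits of the particle, 11 had positive log2 fold changes, with a median of 0.30, and 0 were called. By library totals PSMB5 and PSMB6 were called higher, at 0.65 and 0.61, as were 6 of the 11, where 27.3% of all genes were higher. Set against its constitutive counterpart per kilobase, each inducible subunit had a lower mean ratio with bFGF. For PSMB10 to PSMB7 the ratio was 0.401, 0.385 and 0.35 in OIM and 0.304, 0.287 and 0.283 in bFGF, without overlap (exact two-sided permutation p = 0.1, n = 3 each). The ratios of PSMB8 to PSMB5 (0.329 ± 0.0412 in OIM and 0.289 ± 0.0322 in bFGF) and of PSMB9 to PSMB6 (0.12 ± 0.0144 and 0.108 ± 0.00734) overlapped between the groups, with exact permutation p of 0.2 and 0.3 (n = 3 each).

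**Figure D3:**
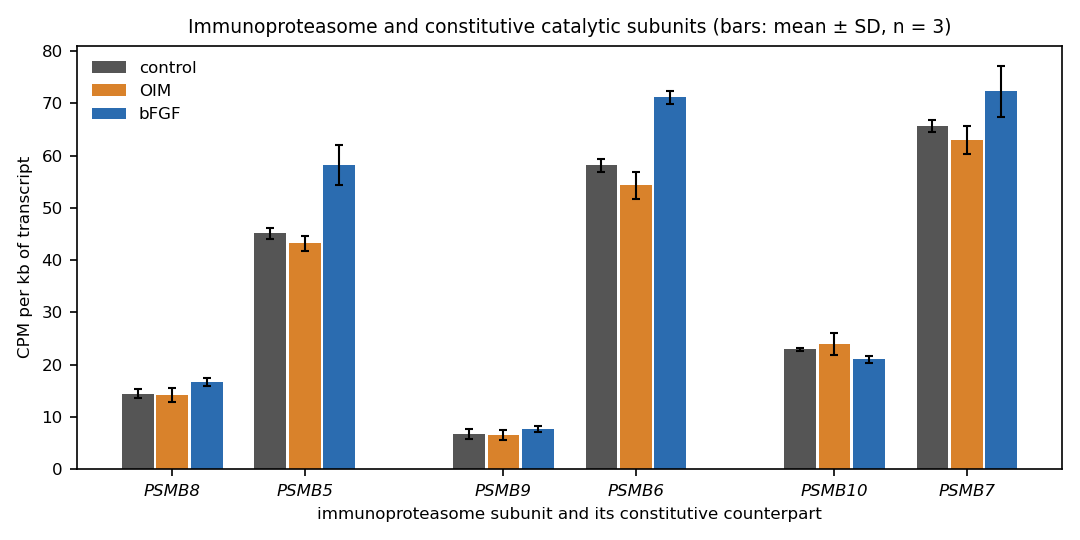
Level in CPM per kilobase of transcript of the 3 inducible catalytic subunits, each beside the constitutive subunit it replaces, as mean and SD over 3 libraries per group, from 0. The constitutive subunits are the higher of each pair in every group, and with bFGF the means of PSMB5 and PSMB6 stand furthest above OIM.

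Calls in the other pathway lists went both ways. Of 41 further interferon-stimulated genes, 10 were lower with bFGF and 4 higher (18.4% and 17.7% of all genes). By library totals 5 were lower (DDX60, IDO1, LGALS9, TNFSF10 and UBE2L6) and 7 higher (12.4% and 27.3% of all genes), and CXCL10, one of the 10, was called in 3 of the 9 fits that each left out 1 library (without control replicate 2, OIM replicate 3 or bFGF replicate 3). TNFSF10, which encodes the death ligand TRAIL, had the largest change at -4.60 (SE 0.133, adjusted p = 1.44e-16). It measured 51, 44.3 and 60.8 CPM in OIM and 2.48, 2.46 and 1.48 in bFGF. IDO1, a tryptophan-degrading enzyme, had -2.29 (SE 0.484, adjusted p = 0.000325) at under 1 CPM in OIM, and BATF2 had 1.39 (SE 0.314, adjusted p = 0.000594). Among 13 adaptors and kinases of nucleic acid sensing, 3 were higher and 4 lower (17.7% and 18.4% of all genes), and with library totals alone 3 were higher and 0 lower (27.3% and 12.4% of all genes). MB21D1, the DNA sensor cGAS, rose by 1.35 on the log2 scale (SE 0.248, adjusted p = 7.35e-05), IRF5 by 1.32 (SE 0.396, adjusted p = 0.00617), and the adaptor MYD88 had -0.71 (SE 0.0799, adjusted p = 1.41e-07). MB21D1 was scarce, at 1.37 CPM in OIM and 3.52 in bFGF on average, as were IRF5 (0.565 and 1.41) and BATF2 (0.78 and 2.05).

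The next lists are again read against 18.4% of all genes lower and 17.7% higher. Of 12 negative regulators of interferon signalling, 1 was higher, SOCS2, with a log2 fold change of 1.82 (SE 0.154, adjusted p = 2e-09), and 0 were lower. Of 14 further genes of class I folding and peptide trimming, 1 was lower, the class I gene SLA-6, with -0.59 (SE 0.0626, adjusted p = 6.39e-08), a call that was lost with library totals alone. Of 12 class II genes, RFX5, a factor that binds class I and class II promoters, was higher at 1.14 (SE 0.0675, adjusted p = 7.93e-12). SLA-DQA1 was lower at -1.47 (SE 0.639, adjusted p = 0.0497), with overlapping libraries under 1 CPM and a call in 2 of the 9 fits that each left out 1 library. In OIM against control, 2.35% of all genes were called, and 0.864% were lower. The calls over all these lists were 1 of the 14 folding and trimming genes and 1 of the 41 further interferon-stimulated genes. They were ERAP1, a peptide-trimming enzyme, at -0.53 (SE 0.065, adjusted p = 1.17e-05), and the chemokine CXCL10 at -0.78 (SE 0.221, adjusted p = 0.0228). CXCL10 was called in 6 of the 9 fits that each left out 1 library (not without control replicate 1, control replicate 3 or OIM replicate 3), and ERAP1 in 8 (not without OIM replicate 1, at -0.45).

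Within groups, the genes shared an order of libraries. OIM replicate 3 was the highest OIM library in 37 of the 44 genes (84.1%, against 31.8% of all genes), and control replicate 3 was the lowest control library in 36 (81.8%, against 30.9%). Control replicate 2 was the highest control library in 33 (75%, against 37.3%), and bFGF replicate 1 the highest bFGF library in 27 (61.4%, against 32.6%). The median CV of the 44 genes was 8.68% in control, 11.7% in OIM and 7.23% in bFGF, against 5.83%, 6.22% and 5.21% over all genes. The CV reached 33.7% for IFIT2 in OIM and 28.2% for RSAD2 in bFGF. Without OIM replicate 3, 17 of the 20 lower genes were called and the median log2 fold change of the 44 was -0.37. Of the 20 genes, 17 were called in each of the 9 fits that left out 1 library, and the exceptions were DHX58, SLA-1 and SLA-3.

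**Figure D4:**
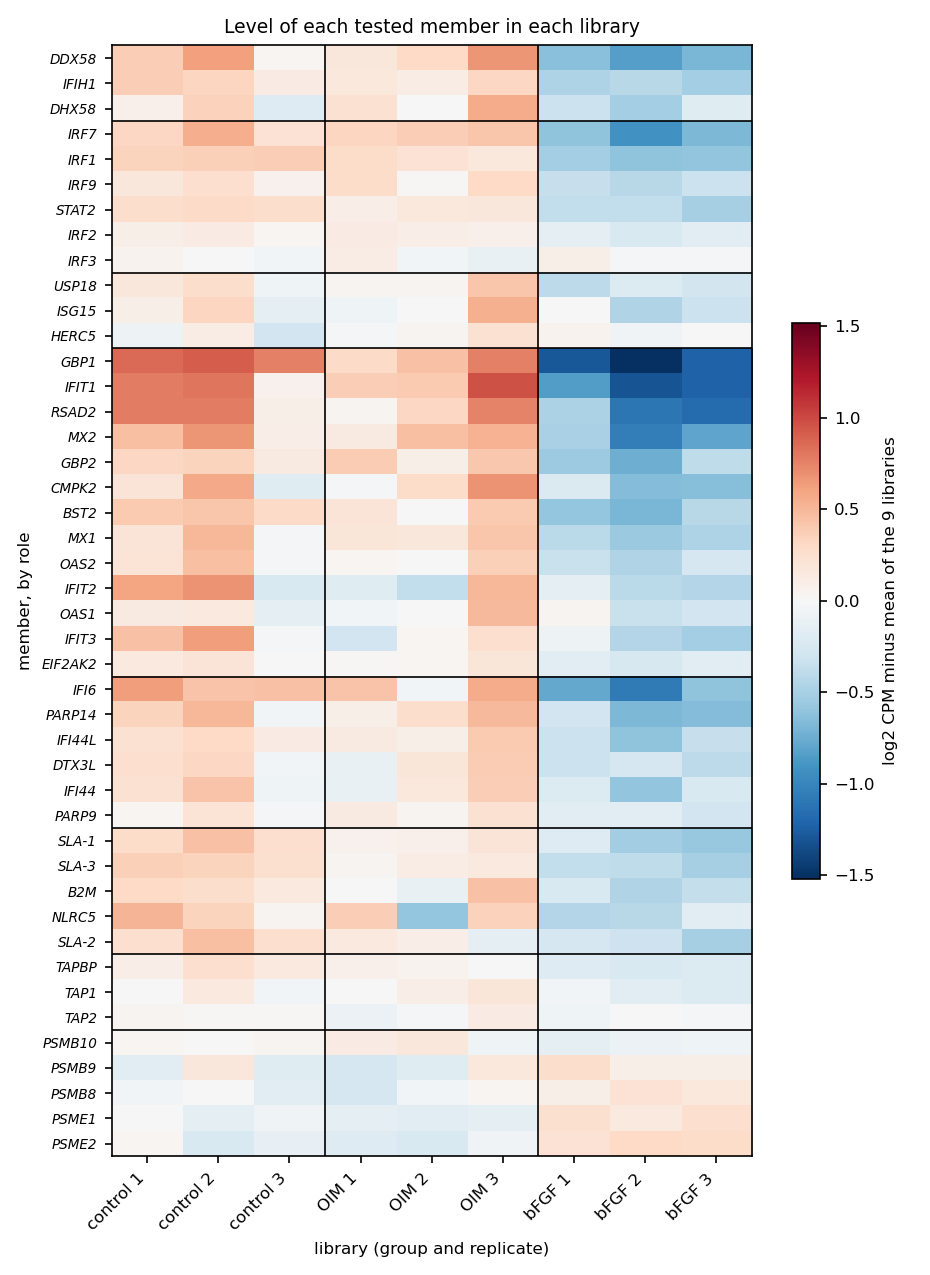
Level of the 44 tested genes in the 9 libraries, as log2 CPM minus the mean of the gene over the 9 libraries (red higher, blue lower), with lines between groups and roles. The 3 bFGF columns are blue for most interferon response genes and pale or red for the proteasome genes at the bottom, and OIM replicate 3 and control replicates 1 and 2 are the reddest columns.

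Against control, bFGF in OIM gave 27 of 44 genes lower and 0 higher, where 20.0% of all genes were lower, 18.9% higher and 39.0% either. This comparison uses the same bFGF libraries as the last one. The median log2 fold change was -0.62, and the lower genes comprised 22 of 31 interferon response genes and 5 of 13 antigen presentation genes. GBP1 had -2.18 (SE 0.118, adjusted p = 1.56e-12), IFIT1 -1.70 (SE 0.181, adjusted p = 5.97e-08) and RSAD2 -1.46 (SE 0.186, adjusted p = 7.55e-07). B2M and SLA-2, which were not called against OIM, had -0.59 (SE 0.0955, adjusted p = 1.62e-05) and -0.68 (SE 0.071, adjusted p = 4.55e-08). With library totals alone 14 genes were lower and 2, PSME1 and PSME2, higher (13.5% and 28.8% of all genes), and B2M, SLA-2 and 11 others of the 27 were no longer called. Leaving out control replicate 2 took 6 of the 27 calls away (IRF9, IFIT2, OAS2, IFI44, DTX3L and NLRC5).

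Scaling matters for the small changes. When TMM was dropped and only library totals were used, the log2 fold changes of all genes in bFGF against OIM moved up by a median of 0.22. PSME1 and PSME2 were the 2 higher genes, and IFIH1, DHX58, STAT2, IRF9, IFI44L, SLA-1 and SLA-3 were no longer called. With that scaling 68.8% of the calls over all genes were higher. The log2 fold changes of HERC5, TAP2 and PSMB10 changed sign, while those of GBP1, IFIT1, IFI6, DDX58 and the other 9 genes still called stayed below 0.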

How the data were processed

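RNA of PVICs was measured in 9 libraries (control, OIM, bFGF, 3 each), grouped by the labels. The authors deposited a table of unnormalized counts with 19535 gene rows, whose values are whole numbers, 9888 rows of non-coding transcripts with estimated counts that need not be whole, not used here, and 6179 circular RNA rows. The submitters' processing notes name Trimmomatic, HISAT2, StringTie and Sscrofa11.1, and the labels a stranded ribosome-depleted kit, while the paper's methods name Cutadapt, STAR and poly-A selection. Which made the table, and the counting program, are not given in the sources used here. A poly-A library would miss RNAs without a tail. Of the gene symbols, 25 were altered to dates, and 19 columns had no name or value.

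The test was that of edgeR 4.0.16 under R 4.3.3 (filterByExpr, TMM, quasi-likelihood F test, all 9 libraries in 1 fit, 6 residual degrees of freedom) on 13662 genes, with Benjamini-Hochberg adjusted p-values over all of them. The call limits (adjusted p of 0.05, log2 fold change of 0.5) follow the study. Over all genes, 4939 were called in bFGF against OIM and 321 in OIM against control. The paper reports fewer in both, a difference whose cause was not tested. Ratios were compared by exact permutation tests over libraries. Alternatives were DESeq2 1.42.0, other scalings, filters and limits, a replicate block, and leaving out each library. On simulated counts of 13662 genes for bFGF against OIM, edgeR recovered 171 of 200 genes changed by a log2 of 1 (85.5%) with 4 false calls. In the data 36.2% of all genes were called. The simulation changed few genes, equally up and down, so it does not test the choice of scaling. Library pairs of a group differed by more than counting noise (mean chi-square per gene of 4.62 to 18.8). Positions, transcript lengths and sequences came from RefSeq Sscrofa11.1.

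The 49 names and the pathway and marker lists were chosen with earlier results of these data known. Every gene in the table was accounted for. Values in each library were given for those called in OIM against control or bFGF against OIM and for the SLA, B2M, sensor, IRF and STAT genes, and at most 3 genes per pathway list were named by size of change, with PSMB5, PSMB6 and PSMB7 always. LOC100151816 and further named genes of the text were added after their values were seen. A further gene of the pathway lists and a further promoter sequence are not reported here.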

Additional observations from a re-analysis of the deposited data

How the results depend on the processing

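In OIM against control, 0 genes were called under every alternative except 3 (all lower) without a fold limit, and between 0 and 1 when each library was left out in turn. In bFGF against OIM, the count of 20 became 37 without a fold limit (3 higher, 34 lower, where 33.8% and 33.5% of all genes were), 7 with a log2 limit of 1 (all lower, where 9.11% of all genes were lower and 8.90% higher) and 15 with library totals alone (2 higher, 13 lower). It ranged from 17 to 26 when each library was left out. In bFGF against control, the count of 27 became 38 without a fold limit (3 higher, 35 lower, where 34.5% and 35.7% of all genes were), 7 with a log2 limit of 1 (all lower, against 10.4% of all genes lower and 9.80% higher) and 16 with library totals alone (2 higher, 14 lower), and ranged from 21 to 29 when each library was left out. The cause of these changes was not tested, beyond the limits' own construction and the shift of all genes by 0.22 under library totals. DESeq2, median-of-ratios scaling and both other filters kept all 20 and all 27 genes.

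Of 2302 values of single genes under the alternatives, which cover the 44 genes in both bFGF comparisons, called or named genes outside the 44 in bFGF against OIM, and GBP1, SLA-2, SLA-3, ERAP1 and CXCL10 in OIM against control, 2091 kept their direction and their side of the limits, 137 kept the direction and lost the call, 62 gained one and 12 changed sign. With library totals alone, 14 of the 31 pathway genes called in bFGF against OIM lost the call, all of them among the 22 lower ones. These were CXCL10, HERC6, IFNGR1, JAK1, JAK2, PARP12, TDRD7, TLR3, TRIM25, WARS, ZBP1, MYD88, SLA-6 and SLA-DQA1, the last 3 at -0.49, -0.37 and -1.25. SLA-DQA1 lost it also without a filter on low counts (adjusted p = 0.0703 with edgeR) and with only the 2 groups compared (0.0545). CXCL10 lost it with only the 2 groups compared as well. Of the 4 higher further interferon-stimulated genes, 1 lost it without that filter and with at least 1 CPM in 3 libraries. That gene was called in 7 of the 9 fits that each left out 1 library, and PARP12 in 8 (not without OIM replicate 3). The 12 signs that changed belonged to genes that were not called. With library totals alone, HERC5, TAP2 and PSMB10 had log2 fold changes of 0.14, 0.19 and 0.038 against OIM, and TAP1, TAP2 and PSMB10 had 0.059, 0.17 and 0.10 against control. When each library was left out, IRF3 ranged from -0.028 to 0.086 and TAP2 from -0.0789 to 0.024 against OIM, and IRF3 from -0.029 to 0.035 and HERC5 from -0.018 to 0.19 against control. In OIM against control, where 0 of the 44 genes were called, between 4 and 12 of them changed sign when a control or OIM library was left out, and IFI44L did with DESeq2 and with median-of-ratios scaling. The length of the other B2M record moved the level of B2M per kilobase and the ratio of SLA-1 to it by over 1.5 times.

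The replicate numbers did not pair the libraries: same-numbered libraries of different groups correlated at -0.032 to 0.0035. A replicate block gave 0, 20 and 27 calls in the 3 comparisons and changed no call. For NLRC5, the scarcest of the 44 genes, the 95% interval against OIM (-1.09 to 0.22) reached past the fold limit on the lower side. A difference of that size could not be told from none in these libraries.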
